A study of Mus musculus with 6 samples.

Results

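Immediate early genes and inducible heat shock genes were examined in neural progenitor cells (NPCs) of mouse embryos with and without Ybx1. The group holds 10 of the 51733 genes counted. They were listed by name, as genes that dissociation and sorting of tissue can induce, and all 10 were found in the tables of all 6 libraries. The immediate early members are Fos, Fosb, Jun, Junb, Egr1, Ier2, Atf3 and Dusp1, and the heat shock members are Hspa1a and Hspa1b. RNA came from Sox2-positive cells sorted from neural tubes of E13.5 embryos, with 3 control (wildtype) and 3 Ybx1-KO libraries of C57BL/6 strain, named here by group and replicate. Ybx1-KO embryos were homozygous for the null allele Ybx1tm1Ley, which all cells of the embryo carry. The tissue was dissociated with collagenase and then trypsin at body temperature, filtered and sorted, and the labels name both a Sox2-eGFP reporter and the dye NeuroFluor CDr3 as ways to sort. Embryos of both sexes were used, and the sources used here do not say how many went into a library. The titles of controls 1 and 2 share a number, as do those of Ybx1-KO 1 and 2, and its meaning is not given. Nothing says that the libraries of a group are separate litters, so p-values measure only the spread between these libraries.

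Immediate early genes are switched on within minutes of a stimulus, without new protein synthesis, by transcription factors that already sit in the cell, such as serum response factor with its Elk partners and Creb1. Fos, Fosb, Jun and Junb encode subunits of the AP-1 transcription factor, Egr1 a zinc finger factor and Atf3 a stress-induced bZIP factor, and Dusp1 is a phosphatase that turns MAP kinases off again. Hspa1a and Hspa1b encode the inducible Hsp70 chaperone and are driven by heat shock factor 1 when proteins unfold. In brain tissue both classes are known to rise when cells are dissociated with warm enzymes and sorted, so their level can carry the history of the cells between dissection and lysis as well as their state in the embryo.

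The promoters show what the members share by sequence, and how alike the heat shock pair is. RefSeq promoter windows (GRCm38.p6, 250 bases before to 50 after the start of transcription) matched 8 of the 10 members, all but Egr1 and Ier2. The 200 bases before the start are printed for 5 of them, 5′ to 3′ on the gene's own strand. Capitals mark, in the immediate early genes, the cAMP response half-site TGACG and the TATA box TATAAA, and in the heat shock genes the heat shock element GAANNTTC. These and the following motifs were searched on both strands.
Fos, chr12:85473690-85473889, plus strand: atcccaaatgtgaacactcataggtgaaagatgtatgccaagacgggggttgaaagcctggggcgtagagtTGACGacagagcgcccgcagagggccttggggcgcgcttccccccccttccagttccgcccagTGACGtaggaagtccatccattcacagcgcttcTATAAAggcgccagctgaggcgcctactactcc
Fosb, chr7:19310046-19310245, minus strand: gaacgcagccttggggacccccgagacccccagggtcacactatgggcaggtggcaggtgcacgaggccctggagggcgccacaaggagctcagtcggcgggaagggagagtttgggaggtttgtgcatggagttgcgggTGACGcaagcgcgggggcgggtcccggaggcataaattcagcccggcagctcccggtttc
Dusp1, chr17:26508473-26508672, minus strand: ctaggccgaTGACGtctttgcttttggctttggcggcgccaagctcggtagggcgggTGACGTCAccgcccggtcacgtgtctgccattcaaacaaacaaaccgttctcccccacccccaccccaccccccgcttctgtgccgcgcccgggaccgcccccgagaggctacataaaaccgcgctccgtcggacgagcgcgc
Hspa1a, chr17:34972157-34972356, minus strand: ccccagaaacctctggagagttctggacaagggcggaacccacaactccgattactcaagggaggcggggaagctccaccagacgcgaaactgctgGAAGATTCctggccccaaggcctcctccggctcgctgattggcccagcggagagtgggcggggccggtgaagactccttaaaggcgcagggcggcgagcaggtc
Hspa1b, chr17:34959239-34959438, minus strand: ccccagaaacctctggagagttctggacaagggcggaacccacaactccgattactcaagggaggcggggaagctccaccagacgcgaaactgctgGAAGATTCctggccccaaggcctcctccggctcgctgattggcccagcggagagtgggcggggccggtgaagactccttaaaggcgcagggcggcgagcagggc

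The half-site TGACG stood in 5 of the 8 member windows (Fos, Fosb, Junb, Atf3 and Dusp1), against 20.8% of all 32851 windows. Its full palindrome TGACGTCA, which contains the half-site on each strand, stood in Dusp1 alone, 143 bases before the start, and in 1.79% of all windows. The heat shock element GAANNTTC stood in Hspa1a, Hspa1b and Jun, against 7.86% of all windows, and 104 bases before the start in both heat shock genes. The TATA box letters TATAAA were found in the windows of Fos and Junb and in 13.6% of all. They stood 33 bases before the start in Fos, and at bases 1 to 6 counted from the start in Junb. Only the match in Fos thus lay before the start. The serum response element, searched by its CArG box, was found in 0 of the 8 windows and in 1.63% of all. Bases farther from the start were not searched, and Egr1 and Ier2 had no window. A member without a match here may therefore still carry the element. These matches are descriptions of these windows only. Over the 200 printed bases, Hspa1a and Hspa1b were identical at 199 and differed by T199G, given as the Hspa1a base, the position counted from 1 at the first printed base, and the Hspa1b base.

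Libraries held 20841990 to 23883542 counts on genes in control and 4743279 to 13321952 in Ybx1-KO, so every control was sequenced more deeply than every Ybx1-KO library. Normalized levels are counts-per-million values (CPM), scaled with TMM factors (a trimmed mean of log ratios between libraries), and SE stands for the standard error of a log2 fold change. Adjusted p-values are from edgeR unless another tool is named. Ybx1 itself had 238 to 531 CPM in control and 126, 55.4 and 9.66 CPM in Ybx1-KO 1, 2 and 3, below every control (log2 fold change -2.49, SE 0.675, adjusted p = 0.301). Ybx1-KO 3 stood apart. Its TMM factor was 1.57, against 0.727 to 1.05 in the other 5 libraries. Of all its tallied read pairs 7.22% fell on genes, against 18.01 to 24.66% in the other 5 libraries, and counts fell on 81.9% of 1729 sensory receptor genes, against 2.43 to 29.0%. The 12 NPC markers were present in every library, with a summed level of 1688 to 1850 CPM in control and 1330 to 2165 CPM in Ybx1-KO, and Sox2 itself lay between 17.5 and 50.6 CPM. The 10 neuron markers were present too, at 3292 to 4877 CPM in control and 1382 to 3664 CPM in Ybx1-KO.

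Of the 10 genes, 0 were called different between Ybx1-KO and control in edgeR, where a call needed more than a 1.5-fold change and an adjusted p under 0.05. The same held for 0 of the 21329 genes tested (0%), of which 2393 had an unadjusted p below 0.05 (11.2%). The biological coefficient of variation, the typical spread between libraries of a group, was 0.80 in this fit. Ybx1, the deleted gene, was not called in it either, so the absence of a call does not show that a gene is unchanged. DESeq2 on the same genes called 118 genes higher and 96 lower and limma-voom called 0 in either direction, with 0 of the 10 genes among the calls of either. Only 7 members were tested, because Atf3, Hspa1a and Hspa1b had a mean of at most 1 FPKM (CPM on the plain library total, divided by exon length in kilobases) in both groups. Fos and Egr1 were the 2 members with an unadjusted p below 0.05, both lower in Ybx1-KO, where 4.26% of all genes tested were lower and 6.96% higher at that limit. The median log2 fold change of the 7 was -0.48, with 5 negative, and that of all genes tested was 0.31, with 38.7% negative. The median of all genes depended on Ybx1-KO 3. Leaving out that library gave a median of 0.013 over the 15184 genes that then passed the filter, and of -0.066 over the same 21329. Among those 15184 genes the 7 members ran from -1.56 (Fos) to 0.40 (Dusp1). In TMM-normalized CPM, 0 of the 10 had groups that did not overlap, against 13.1% of all genes tested (4.99% higher and 8.15% lower in Ybx1-KO).

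Egr1, on chromosome 18 of GRCm38 from 34859823 to 34864984, had the highest mean level per exon length of the 10 in both groups. Its level was 870 CPM in control 1, 222 in control 2 and 295 in control 3, against 179, 269.6 and 30.1 CPM in Ybx1-KO 1, 2 and 3. Control 1 lay far above the other 5 libraries and Ybx1-KO 3 far below, while the remaining libraries of both groups interleaved. The means were 462 ± 355 CPM in the controls against 159.6 ± 121 CPM in Ybx1-KO (SD, n = 3 each), with a log2 fold change of -1.53 (SE 0.677, adjusted p = 0.444). Per exon length, Egr1 ranked 64th of 21757 protein-coding genes in control 1, between 315 and 821 in controls 2 and 3 and Ybx1-KO 1 and 2, and 3492 in Ybx1-KO 3.

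Fos, on chromosome 12 from 85473890 to 85477273, had 112 CPM in control 1, 21.0 in control 2 and 24.1 in control 3, and 11.8, 23.6 and 2.42 CPM in Ybx1-KO 1, 2 and 3. As for Egr1, control 1 was the highest and Ybx1-KO 3 the lowest, and the order of all 6 libraries was the same for both genes. The log2 fold change was -2.05 (SE 0.696, adjusted p = 0.406) and the two-sided exact permutation test gave p = 0.2, where 3 against 3 libraries allow no p below 0.1. The Fos value of Ybx1-KO 3 rests on 17 counts, against 2340 in control 1. Scaled by the total count on the genes tested in place of TMM, the groups of Fos and Egr1 no longer overlapped, with both lower in Ybx1-KO, where 4.83% of all genes tested were lower and 6% higher without overlap, and their log2 fold changes were -2.20 and -1.65, with an adjusted p of 0.447 for both.

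**Figure D1:**
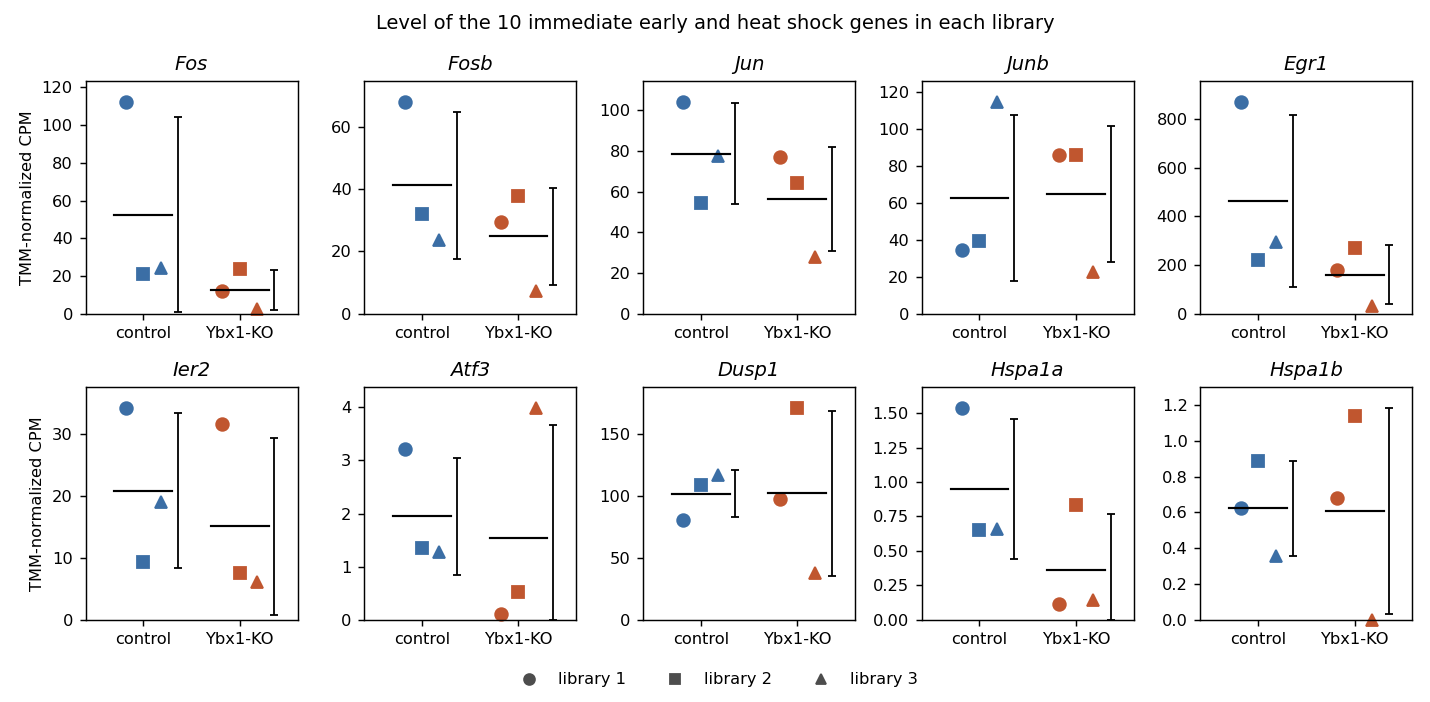
TMM-normalized CPM (linear axis from 0, scaled for each gene) of the 10 genes in the 3 control (blue) and 3 Ybx1-KO (orange) libraries, with the group mean (line) and SD (bar, ending at 0 where it would pass below). Control 1 is the highest point for Fos, Fosb, Jun, Egr1 and Ier2, and Ybx1-KO 3 is the lowest for every immediate early gene except Atf3, where it is the highest.

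The size of both differences changed with single libraries. Without control 1 the log2 fold change of Fos was -0.86 and that of Egr1 -0.72, and without Ybx1-KO 3 they were -1.56 and -1.04. With both of these libraries left out, a setting chosen after seeing the data, they were -0.36 (SE 0.576) and -0.21 (SE 0.516), and the other 5 tested members ran from 0.10 to 0.49. Control 1 and Ybx1-KO 3 were the highest and lowest libraries for Fos and Egr1, so this setting favours smaller differences. Leaving out Ybx1-KO 2 instead turned Fos into a call (log2 fold change -2.82, adjusted p = 2.9e-06) and Egr1 likewise (-2.10, adjusted p = 0.0073). That fit called 730 genes higher and 216 lower of 24345 tested. On the genes tested in all 6 libraries 283 were called higher and 137 lower. There Fos was called (adjusted p = 0.0079) and Egr1 was not (adjusted p = 0.080). Without Ybx1-KO 1, Fos (-2.01, adjusted p = 0.0034) and Ier2 (-1.66, adjusted p = 0.037) were called. They were among 165 genes called lower, with 531 higher, of 24300 tested. Neither was called on the genes tested in all 6 libraries, where 79 were called higher and 28 lower. Without any filter on low counts Fos was called in all 6 libraries (-2.06, adjusted p = 0.015). It was among 80 genes called lower, with 113 higher, of 42828 tested. The adjusted p of Fos thus ran from 2.9e-06 to 0.94 over 24 alternatives, with a negative log2 fold change in each.

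Fosb, the paralog of Fos, had 67.9, 32.0 and 23.6 CPM in controls 1, 2 and 3 and 29.3, 37.7 and 7.39 CPM in Ybx1-KO 1, 2 and 3. It too was highest in control 1 and lowest in Ybx1-KO 3, with Ybx1-KO 1 and 2 within the range of the controls (log2 fold change -0.73, SE 0.527, adjusted p = 0.524). Jun, the AP-1 subunit that binds Fos proteins, had 104, 54.6 and 77.5 CPM in control and 76.9, 64.4 and 27.8 CPM in Ybx1-KO. Its highest and lowest libraries were the same pair, but the span was narrower. The log2 fold change of Jun was -0.48, about the size of its SE of 0.432.

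Junb, the AP-1 subunit that can oppose Jun, followed another order. It had 34.4, 39.1 and 114 CPM in controls 1, 2 and 3 and 85.8, 86.0 and 22.5 CPM in Ybx1-KO 1, 2 and 3. Control 1, the highest library for Fos, was the second lowest for Junb, so that the ratio of Fos to Junb in CPM was 3.26 in control 1 and between 0.108 and 0.537 in the other 5 libraries. The log2 fold change of Junb was 0.049 (SE 0.534), and it took either sign when libraries were left out, from -0.27 to 0.82. The exons of Junb overlap those of Prdx2 on the opposite strand, whose levels are given below.

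Ier2, a short-lived immediate early protein of the nucleus, had 34.1, 9.31 and 18.9 CPM in control and 31.5, 7.58 and 6.11 CPM in Ybx1-KO. Here the first library of each group was high and the groups overlapped along most of their range (log2 fold change -0.46, SE 0.599). In FPKM, on the plain library total, Ybx1-KO 3 was not the lowest for Ier2. It had 5.96 FPKM, against 3.60 in Ybx1-KO 2 and 5.47 in control 2. Dusp1 was the steadiest member in control, with 80.6, 109 and 117 CPM, with a wider span of 97.9, 171 and 38.2 CPM in Ybx1-KO 1, 2 and 3, whose highest and lowest libraries lay outside the control range. Its means were 102 ± 19.0 CPM (SD, n = 3) and 102 ± 66.6 CPM (SD, n = 3), with a log2 fold change of 0.0059 (SE 0.477). Its difference in mean was thus far smaller than its error.

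Of the other members, Fosb lies on chromosome 7 from 19302696 to 19310051, Jun on chromosome 4 from 95049034 to 95052222, Junb on chromosome 8 from 84974484 to 84978718, Ier2 on chromosome 8 from 84661331 to 84662852, Dusp1 on chromosome 17 from 26505590 to 26562128 and Atf3 on chromosome 1 from 191170296 to 191218039. All are annotated as protein coding, and the levels are summed over their exons.

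The spread within a group was wide for most of these genes. Among 9606 tested genes with a mean of at least 10 CPM, the median SD of log2 CPM was 0.354 between control libraries and 0.536 between Ybx1-KO libraries. Fos had an SD of 1.33 in control, higher than or equal to 98.8% of those genes, and Egr1 one of 1.04, at 97.2%. Junb (96.2%), Ier2 (95.6%) and Fosb (92.5%) followed, while Jun stood at 67.7% and Dusp1 at 35.5%. Between Ybx1-KO libraries Egr1 (SD 1.67, 99.0%) and Fos (SD 1.56, 98.5%) were again the widest, and Dusp1 stood at 92.2%.

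Summed over the 8 immediate early members, the level was 1306, 489 and 672 CPM in controls 1, 2 and 3 and 512, 661 and 138 CPM in Ybx1-KO 1, 2 and 3. Ybx1-KO 1 and 2 thus lay between controls 2 and 3, and the controls spanned a 2.67-fold range among themselves. Egr1 made up 66.6% of the sum in control 1, 43.9 to 45.5% in the other controls and 21.7 to 40.8% in Ybx1-KO.

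Markers of other cell types moved with some of these values, and their part in them was not tested. The 8 mesenchyme markers summed to 862 CPM in control 1, 129 and 218 CPM in controls 2 and 3, and 69.6 to 140 CPM in Ybx1-KO. Of these markers, 5 were lower in Ybx1-KO and 1 higher at an unadjusted p below 0.05, where 4.26% of all genes tested were lower and 6.96% higher. None was at 0 in any library. The 5 lower were Col1a1, Col1a2, Col3a1, Lum and Dcn, each highest in control 1. Col3a1 alone had 328 CPM in control 1 against 12.8 to 45.6 CPM in the other 5. Foxd1, the higher marker, had 1.63 CPM in control 1 and 10.55 CPM in Ybx1-KO 1. Twist1 was also highest in control 1, whereas Pdgfrb was highest in Ybx1-KO 2. The 9 microglia and macrophage markers summed to 54.3, 11.8 and 22.4 CPM in control and to 7.03, 7.68 and 43.6 CPM in Ybx1-KO, with 4 and 2 of them at 0 in Ybx1-KO 1 and 2. The 8 erythroid markers also had their highest sum in control 1, at 1169 CPM, against 155 to 900.5 CPM in the other libraries. The 8 endothelial markers summed to 24.7 to 56.7 CPM in control and 14.1 to 67.2 CPM in Ybx1-KO. In Ybx1-KO 3 the 90th percentile of the sensory receptor genes stood at 2.31 FPKM. Of the microglia, macrophage and endothelial markers, Csf1r (3.43), C1qa (4.46), Tyrobp (6.95), Pecam1 (3.28) and Cdh5 (2.51 FPKM) lay above it there. The others, such as Ptprc (1.24), Flt1 (1.92) and Kdr (1.96 FPKM), lay below it. The part of such reads in these sums was not tested. In such bulk libraries fewer cells of a type and less RNA per cell cannot be told apart.

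The reads in Ybx1-KO 3 that fell on sensory receptor genes, which NPCs are not known to use, give a level to set beside the members in that library. Their part in the members' values was not tested. The median receptor gene had 0.508 FPKM there and 0 FPKM in each of the other 5 libraries. Fos, at 1.52 FPKM in Ybx1-KO 3, lay above 80.2% of the receptor genes and Fosb, at 1.76 FPKM, above 83.8%. Jun, Junb, Egr1, Ier2 and Dusp1 lay above at least 98.8% of them. In control 1 every one of these 7 genes lay above 100% of the receptor genes.

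**Figure D2:**
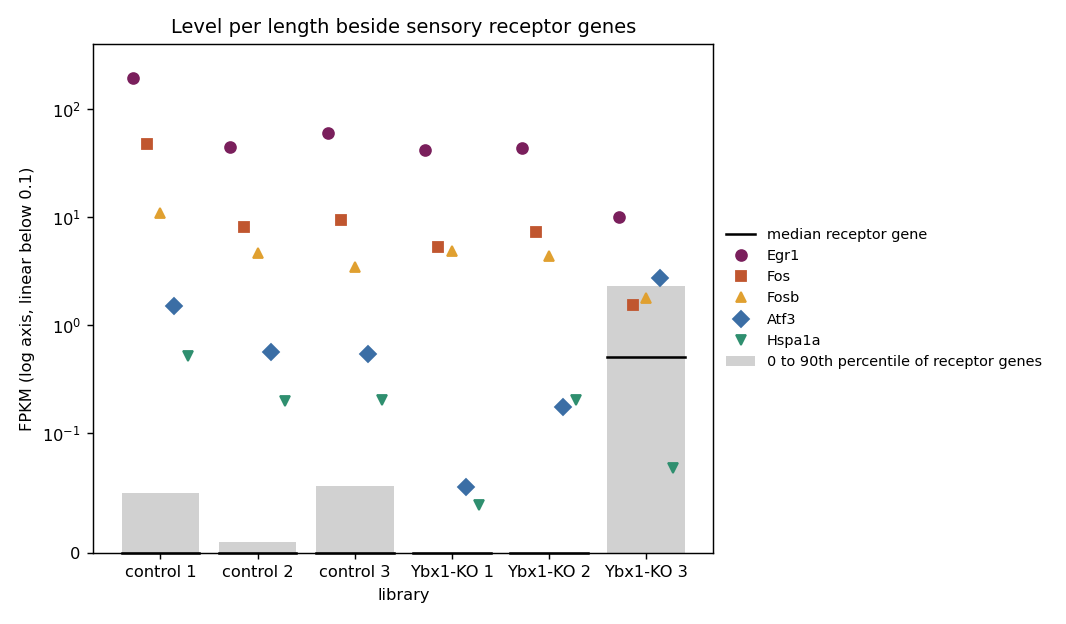
FPKM (log axis, linear below 0.1) of 5 members in each library, beside the range from 0 to the 90th percentile of 1729 receptor genes (grey bar) and their median (line). In Ybx1-KO 3 the 90th percentile is 2.31 FPKM, above Fos and Fosb and below Atf3, whereas in the other 5 libraries it is at most 0.056 FPKM.

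Atf3, the stress-induced bZIP factor, had 67, 29 and 25 counts in controls 1, 2 and 3, which is 3.21, 1.36 and 1.27 CPM, and 1, 5 and 28 counts in Ybx1-KO 1, 2 and 3, or 0.113, 0.519 and 3.98 CPM. Ybx1-KO 1 and 2 lay below all controls, and Ybx1-KO 3 was the highest library of all, the reverse of its place for the other 7 immediate early members. At 2.74 FPKM, Atf3 lay above 92.9% of the receptor genes in that library. The 95% Poisson interval of the level in Ybx1-KO 1, which covers counting error only, reached 0.632 CPM, below the lower bound of 0.822 CPM in control 3, while that of Ybx1-KO 2 reached 1.21 CPM and overlapped it. Over all 6 libraries the exact permutation test gave p = 0.5.

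The heat shock members had at most 32 counts in any library. Hspa1a, a single-exon gene on chromosome 17 from 34969190 to 34972156, had 32, 14 and 13 counts in controls 1, 2 and 3 and 1, 8 and 1 in Ybx1-KO 1, 2 and 3. In CPM this was 1.53, 0.655 and 0.661 against 0.113, 0.831 and 0.142, where a floor of 3 counts stands at 0.140 to 0.426 CPM. Ybx1-KO 2 lay among the controls, and the exact permutation test gave p = 0.3. Hspa1b, its neighbour on the same strand from 34956436 to 34959238, had 13, 19 and 7 counts in control and 6, 11 and 0 in Ybx1-KO, so the highest CPM (1.14) and the lowest were both in Ybx1-KO. The count of 0 in Ybx1-KO 3 lies under the 3-count floor of 0.426 CPM, and its 95% Poisson interval, for counting error only, reaches 0.524 CPM (exact permutation p = 0.9). No difference between the groups was detected in either gene. Under edgeR's own expression filter, which keeps both, the log2 fold change was -1.29 for Hspa1a (SE 1.26, adjusted p = 0.782) and 0.043 for Hspa1b (SE 1.32, adjusted p = 0.995).

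Both genes are uncertain, because the counts kept uniquely aligned read pairs only and could not place reads that the copies share. Of 2868 windows of 100 bases, the length of 1 read, in the Hspa1a transcript, 1350 stand letter for letter in Hspa1b, or 49.9% of the 2704 windows of Hspa1b. Over that part of its length, the pair, whose promoters are printed above, can be counted only through read pairs with a distinct base in the other read. An opposite-strand gene, Gm20481, covers 564 exonic bases of Hspa1a. For Fos, Fosb, Egr1, Ier2, Atf3 and Dusp1, 0 of the windows stood in another annotated transcript. Jun shares 133 windows with its antisense transcript Junos, and Junb 77 with Prdx2 on the opposite strand. Junos had 36 to 297 counts, or 5.81 to 28.1% of the count of Jun, with the highest share in Ybx1-KO 3. Prdx2 had 346, 273 and 696 CPM in controls 1, 2 and 3 and 682, 350.5 and 264 CPM in Ybx1-KO 1, 2 and 3. Like Junb, it was highest in control 3 and lowest in Ybx1-KO 3, and its part in the Junb values was not tested. Whether strand was used in counting is not given, so reads of such pairs may not be told apart.

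Constitutive chaperones were abundant by contrast. Of 27 other heat shock and chaperone genes, all 27 were tested, 0 were called in edgeR or limma-voom and 1 (Dnaja1) in DESeq2, and 1 was higher and 1 lower at an unadjusted p below 0.05, with a median log2 fold change of -0.31. Hsp90ab1, a constitutive Hsp90, had 1423 ± 321 CPM in the controls against 1396 ± 362 CPM in Ybx1-KO (SD, n = 3 each), with a log2 fold change of -0.027. Hspa8, the constitutive relative of Hspa1a, had 927, 808 and 1055 CPM in control and 752, 776 and 445 CPM in Ybx1-KO, where every Ybx1-KO library was the lower, though not when scaled by total count (log2 fold change -0.50, SE 0.497, adjusted p = 0.639). Hspa8 stood 393 to 1038 times above the sum of Hspa1a and Hspa1b in CPM within the 5 libraries other than Ybx1-KO 3, where the sum is a single count and no ratio is given. This ratio is of counts rather than of molecules, and 28.5% of the Hspa8 windows stand in pseudogenes or other transcripts.

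The lower of the 2 was Dnaja1, an Hsp40 co-chaperone, at 496, 389 and 413 CPM in control and 226, 225 and 160.0 CPM in Ybx1-KO. All 3 Ybx1-KO libraries lay below the controls, also when scaled by total count, with a log2 fold change of -1.09 (SE 0.435, adjusted p = 0.440), a difference that DESeq2 called (-1.01, adjusted p = 0.011), and 16.6% of its windows stand in other transcripts. The higher was Hspb8, a small heat shock protein, with 2.06 to 4.65 CPM in control and 17.7, 7.27 and 4.12 CPM in Ybx1-KO (log2 fold change 1.48, SE 0.699, adjusted p = 0.444). Bag3, the co-chaperone that binds Hspb8, was chosen after its values were seen and had 2.45 to 4.06 CPM in control and 6.58 to 9.97 CPM in Ybx1-KO, without overlap (log2 fold change 1.32, SE 0.681, adjusted p = 0.450). Hsp90aa1, the inducible Hsp90, had 474 ± 110 CPM in the controls against 366 ± 57.9 CPM in Ybx1-KO (SD, n = 3 each) with overlap.

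Of 36 other immediate early genes, 30 were tested and 0 were called in edgeR, limma-voom or DESeq2. At an unadjusted p below 0.05, 2 were lower and 2 higher in Ybx1-KO, 16 had a negative and 14 a positive log2 fold change, and the median was -0.11. Their summed level was 642, 611 and 577 CPM in control and 681, 675 and 392 CPM in Ybx1-KO. Control 1 thus did not stand apart in this sum, whereas Ybx1-KO 3 was again the lowest. Ybx1-KO 3 also had the lowest sum of the NPC (1330 CPM), neuron (1382 CPM), mesenchyme (69.6 CPM) and erythroid markers (155 CPM). The same held for the other chaperones (3644 CPM), upstream factors (369 CPM) and integrated stress genes (139 CPM). It was not the lowest for microglia and macrophage (43.6 CPM) or endothelial markers (67.2 CPM). Its low place was thus not particular to immediate early genes.

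Ier5, of the same family as Ier2, had 73.5, 33.6 and 74.3 CPM in control and 29.4, 12.6 and 17.6 CPM in Ybx1-KO. Each Ybx1-KO library lay below each control with TMM, whereas the groups overlapped when scaled by total count, with a log2 fold change of -1.61 (SE 0.440, adjusted p = 0.305). Over the alternatives its log2 fold change stayed between -2.09 and -1.28, and without Ybx1-KO 1 it passed the threshold (adjusted p = 0.0027, and 0.044 on the genes tested in all 6 libraries). Klf6, a zinc finger factor induced by injury, had 65.4, 68.0 and 38.7 CPM in control and 21.5, 35.4 and 17.3 CPM in Ybx1-KO, also without overlap (log2 fold change -1.21, SE 0.406, adjusted p = 0.406). It was called without Ybx1-KO 2 in the fit on 24345 genes (-1.45, adjusted p = 0.036) and not on the genes tested in all 6 libraries (-1.56, adjusted p = 0.066).

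The 2 genes higher in Ybx1-KO at that limit were Gadd45g, a growth arrest gene, and Ctgf, a secreted matrix protein. Gadd45g had 22.3 to 29.9 CPM in control and 106, 34.2 and 32.4 CPM in Ybx1-KO, and without Ybx1-KO 1 its log2 fold change fell from 1.09 to 0.22. It was called without Ybx1-KO 2 (1.42, adjusted p = 0.022), but not on the genes tested in all 6 libraries (1.35, adjusted p = 0.106). Ctgf had 0.936 to 3.93 CPM in control and 5.67 to 10.6 CPM in Ybx1-KO (log2 fold change 1.70, SE 0.739, adjusted p = 0.444). The 3 most abundant genes of the list, Rhob, Btg2 and Dusp4, had mean levels of 91.9, 57.6 and 55.9 CPM in control and 74.5, 80.8 and 48.8 CPM in Ybx1-KO, and their groups overlapped. Jund, named after its values were seen, had only 0 to 9 counts per library, and an antisense gene, Gm11175, covers 877 of its 1668 exonic bases.

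**Figure D3:**
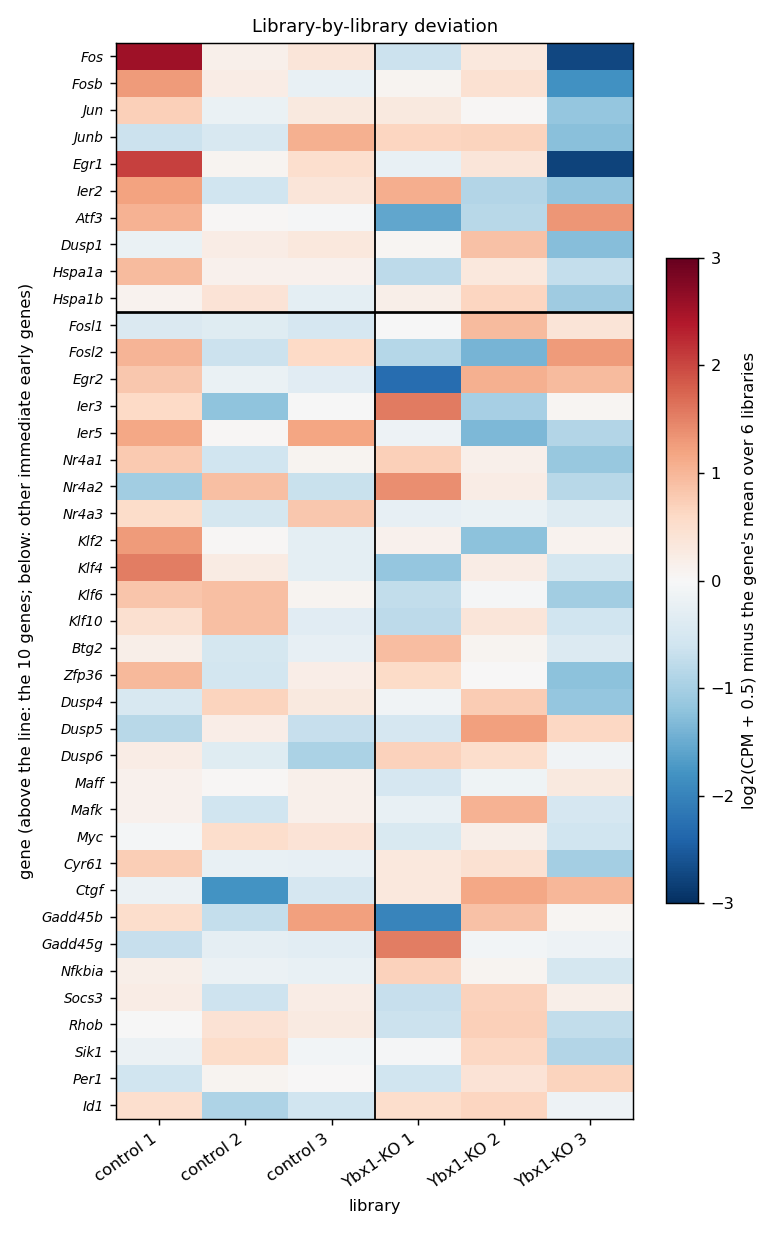
Deviation of log2(CPM + 0.5) from each gene's mean over 6 libraries (color scale from -3 to 3) for the 10 genes (above the line) and the 30 tested genes of the other immediate early list (below). Fos and Egr1 hold the deepest red in control 1 and the deepest blue in Ybx1-KO 3, while no single library is red or blue over the whole lower list.

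Of 13 transcription factors that act upstream, such as Srf, Creb1 and Hsf1, 12 were tested, 0 were called in edgeR, limma-voom or DESeq2, and 0 had an unadjusted p below 0.05. Their median log2 fold change was -0.31, with 10 negative. Creb1 had 130, 134 and 89.2 CPM in control and 72.8, 85.5 and 64.8 CPM in Ybx1-KO without overlap, as did Atf2, with 145, 151 and 100.0 CPM against 61.2, 94.7 and 81.0 CPM, and both overlapped when scaled by total count. Hsf2 had 75.4 to 116 CPM in control and 66.4 to 102 CPM in Ybx1-KO. Of 8 genes of the integrated stress response, where Atf3 is a known target of Atf4, 7 were tested and 0 were called or had an unadjusted p below 0.05. Atf4 had 83.1 to 130 CPM in control and 68.1 to 232 CPM in Ybx1-KO, with Ybx1-KO 1, the library with the lowest Atf3, at the top. Ddit3 (10.7 to 15.3 against 8.81 to 20.4 CPM) and Ddit4 (13.9 to 88.9 against 31.0 to 47.9 CPM) overlapped.

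Of 9203 protein-coding genes with a mean of at least 10 CPM outside the members, those whose log2 CPM over the 6 libraries ran most like the mean of the 8 immediate early members were Fbxo10 (Pearson r 0.987), Memo1 (0.984), Plat (0.983), Vps72 (0.982) and Snrk (0.981). For the mean of Hspa1a and Hspa1b they were Pcnx (0.995), Ssr1 (0.983), Cdh11 (0.975), Med24 (0.973) and Plxna3 (0.972). These are the highest of many correlations over 6 points that share the same libraries and depths, and serve as a description. Of these 10 genes, 0 stood on the lists of other immediate early, heat shock, upstream or stress genes.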

How the data were processed

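The members and gene lists were chosen with earlier results of these data known. Per the labels, stranded total RNA libraries were sequenced as pairs of 100 cycles. The authors mapped the reads (aligner and strand setting not given in the sources used here; builds named in the submitters' processing notes: mm10 and GRCm38.p5), counted them per gene with HTSeq 0.6.1p1 on GENCODE and deposited raw counts, 1 table per library. Read pairs outside genes, ambiguous or not uniquely aligned are tallied by the counter and stayed out of library sizes.

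Genes entered where the mean FPKM of a group passed 1, with exon lengths from GENCODE M21 on GRCm38, which matched 47624 of 51733 symbols directly and 365 by an older symbol. FPKM was scaled by total count on genes. Counts were scaled by TMM and tested in R 4.3.3 with edgeR 4.0.16 (quasi-likelihood, Benjamini-Hochberg over all genes tested), with limma-voom 3.58.1 and DESeq2 1.42.0 as alternatives. The study itself used voom and, at the same limits of adjusted p and fold change, reported genes higher and lower in Ybx1-KO, unlike limma-voom here. The reason for this difference was not tested. Standard errors are the log2 fold change over the root of the F statistic. Permutation tests are two-sided and exact, on log2(CPM + 0.1). The edgeR, limma-voom and DESeq2 fits were checked on simulated counts of 6 libraries beforehand. The other scalings, filters and fits with libraries left out were not checked in this way. Named genes are the 10 members, Ybx1, and from each other list the genes with an unadjusted p below 0.05 and the 3 most abundant, plus the 5 genes most like each member class. Intervals and floors cover counting error only, since read pairs carry no molecular identifiers. Alternatives were other tests, scalings, filters and leaving out libraries.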

Additional observations from a re-analysis of the deposited data

How the results depend on the processing

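No paired analysis was possible because the labels give no replicate number that pairs a control with a Ybx1-KO library. Of the members, 0 were called under limma-voom, DESeq2, the other scalings and the filters on expression, and 1 (Fos) without a filter on low counts. Leaving out 1 library in turn gave 0 to 2 called members, 0 to 730 genes called higher and 0 to 216 called lower. Restricted to the genes tested in all 6 libraries, 29 higher and 42 lower calls were made without control 2, 79 and 28 without Ybx1-KO 1, 283 and 137 without Ybx1-KO 2, and 27 and 19 without Ybx1-KO 3. Members without overlap numbered 0 to 3 when 1 library was left out, with 3 without control 2 (Fos, Jun and Egr1, where 20.2% of all genes tested did not overlap), 3 without Ybx1-KO 2 (Fos, Egr1 and Hspa1a, 23.8%), 1 without Ybx1-KO 1 (Ier2, 23.0%) and 1 without Ybx1-KO 3 (Atf3, 30.3%). The members so named were all lower in Ybx1-KO. Genes lower without overlap made up 11.7% of all tested without control 2 and 11.5% without Ybx1-KO 2. Their share was 12.2% without Ybx1-KO 1 and 16.5% without Ybx1-KO 3. DESeq2 called 118 genes higher and 96 lower, and no filter 113 and 80, against 0 and 0. Scaling by total count left 2 members without overlap (Fos and Egr1, against 10.8% of all genes tested), and leaving out control 1 and Ybx1-KO 3 together left 1 (Atf3, against 34.8%). These too were lower in Ybx1-KO, where the lower genes without overlap were 4.83% of all with total counts and 18.9% without both libraries. The median gene stood at 0.31 on the log2 scale in the main scaling, at 0.53 with total counts and at 0.013 without Ybx1-KO 3. The sign of Dusp1 turned with limma-voom (-0.22), total count (-0.00054) and no filter (-0.048), and ran from -0.50 to 0.40 as libraries were left out, or to -0.15 (without control 1) and -0.58 (without Ybx1-KO 2) on the genes tested in all 6. That of Junb turned without a filter (-0.0027) and ran from -0.27 to 0.82 over the left-out libraries, with -0.20 (without control 2), -0.21 (without Ybx1-KO 1) and -0.21 (without Ybx1-KO 2) on the genes tested in all 6. Ier2 ran from -1.66 to 0.091, and to 0.095 without control 1 on those genes. With control 1 and Ybx1-KO 3 both left out, the log2 fold changes of Fosb (0.27), Jun (0.10) and Ier2 (0.49) were positive. Each of these genes was highest in control 1 and lowest in Ybx1-KO 3 in TMM-normalized CPM. This setting, chosen after seeing the data, therefore favours a shift upward. The cause of these changes was not tested. Low counts limit Atf3, Hspa1a and Hspa1b.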
